A study of Mus musculus with 6 samples.

Results

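The genes described here are 10 core genes of the Notch pathway: the receptors Notch1, Notch2, Notch3 and Notch4, the ligands Jag1, Jag2, Dll1 and Dll4, and the targets Hes1 and Hey1. They were chosen by gene symbol among the 54146 genes of the deposited count files, and all 10 passed the filter on low counts that left 17308 genes for testing. Messenger RNA was measured in whole kidneys of mice aged 12 weeks, of the strain given as B6C3F1/J, with 3 libraries under the label KspCre Tfam f/f, called KspCre-labelled below, and 3 under the label Tfam f/f, called Tfam f/f-labelled. Both labels name floxed Tfam alleles, and the first also names a Cre transgene driven by the promoter of Ksp-cadherin (Cdh16), which is active in tubule epithelium. Tfam encodes mitochondrial transcription factor A, which mitochondria need to keep and transcribe their DNA. Whether each library is a separate animal is not stated in the labels. The p-values therefore rest on differences among libraries of one label, and these may be technical.

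The targeted gene went against the labels. Tfam had 63.1, 63.5 and 61.4 normalized CPM (counts scaled to the effective size of each library) in the KspCre-labelled libraries, against 30.3, 33.6 and 23.2 in the Tfam f/f-labelled ones. Messenger RNA of the mitochondrial genome, which Tfam is needed to transcribe, made up 10.98% to 11.05% of gene counts in the KspCre-labelled libraries and 2.39% to 5.67% in the Tfam f/f-labelled ones. The names that the submitters gave the count files also mark the KspCre-labelled libraries as wild type. Whether the labels of the groups were exchanged was not tested. Each direction below is therefore between labels, not between known genotypes, and every one would turn round if they were. Gene counts totalled 30348281 to 48899266 per KspCre-labelled library and 19024208 to 34821537 per Tfam f/f-labelled library, and raw counts of the 10 genes ran from 18 (Hey1) to 2772 (Notch2). Kidney markers were present in every library, among them Umod, Lrp2 and Slc12a3. The Tfam f/f-labelled libraries were more spread than the others, and replicate 3 stood farthest out: the summed level of 15 tubular injury markers was 16971 normalized CPM there, 8508 and 4700 in replicates 1 and 2, and 1399 to 1483 in the KspCre-labelled libraries.

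Notch receptors are single-pass membrane proteins that bind ligands of the Jagged and Delta-like families on a neighbouring cell. Binding exposes the receptor to cleavage by ADAM proteases and then by gamma-secretase, and the freed intracellular part enters the nucleus, joins the DNA-binding protein RBPJ and switches on repressor genes of the Hes and Hey families. In the kidney the pathway helps to pattern the nephron during development, and it is known for renewed activity in injured tubules and glomeruli and for a part in fibrosis.

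Of the 10 genes, Hes1 and Notch1 were lower in the KspCre-labelled libraries, none was higher, and 8 did not pass the test (adjusted p below 0.05 in edgeR's quasi-likelihood test). Over all tested genes, 46.2% passed in either direction with 21.3% higher and 24.9% lower, so the 2 of 10 are a smaller share than the background. Changes were also small in size: the median absolute log2 fold change was 0.17 for the 10 genes and 0.47 over all tested genes, and the signed medians were 0.01 and -0.03. In a test against a minimum fold of 1.5 none of the 10 passed, with 1116 genes higher and 1824 lower over the whole table in the same test.

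**Figure D1:**
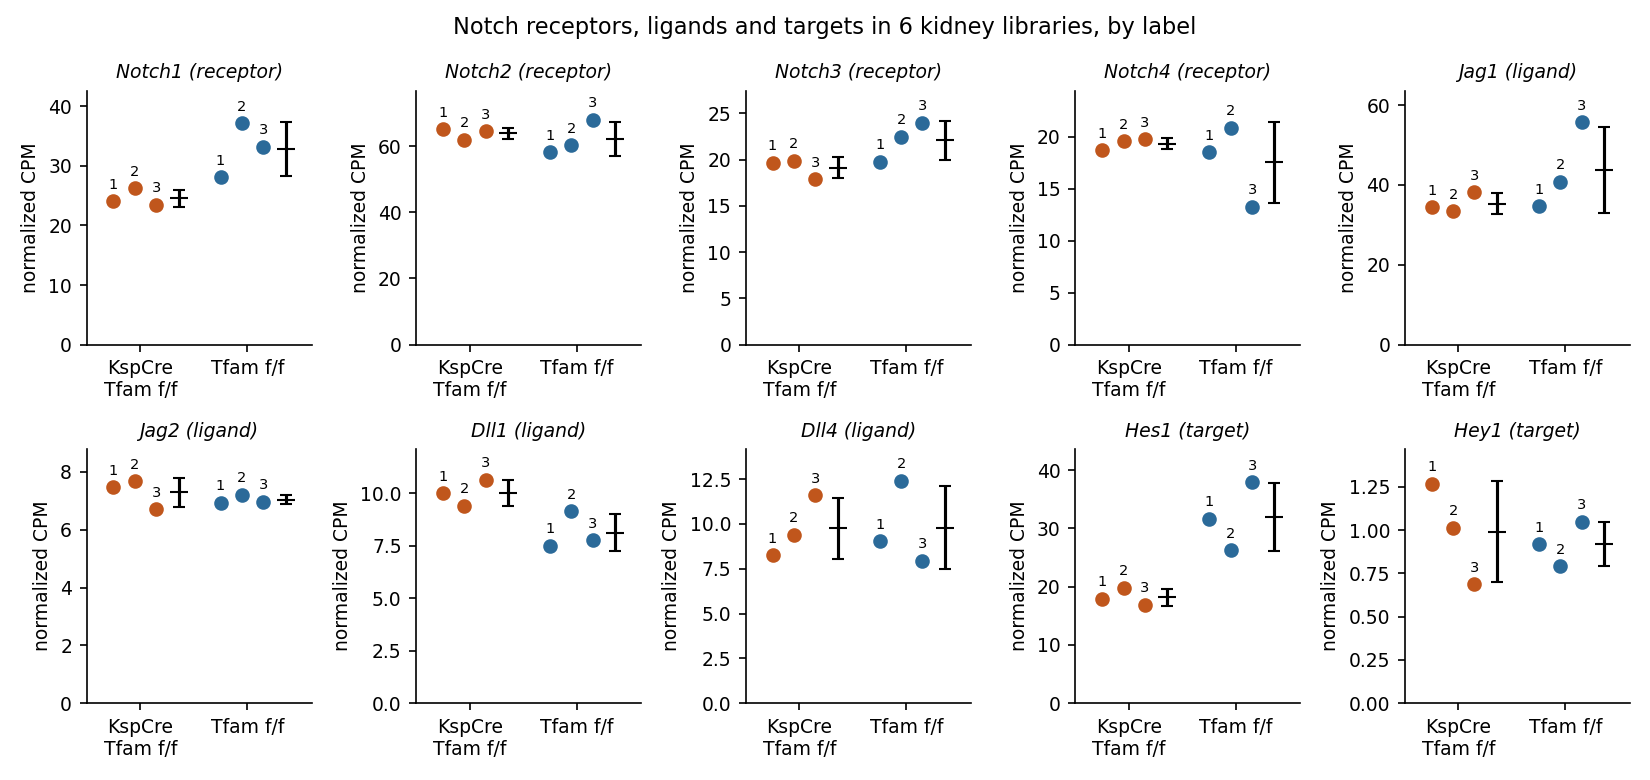
Normalized CPM (vertical axes, from 0) of the 10 genes in each library, with the KspCre-labelled libraries on the left and the Tfam f/f-labelled ones on the right of each panel. Points are libraries with their replicate numbers, and bars are the mean and SD of 3 libraries. Hes1 and Notch1 do not overlap between the groups, with highest values of 19.8 and 26.2 in the KspCre-labelled libraries and lowest values of 26.2 and 28.1 in the Tfam f/f-labelled ones. Dll1 does not overlap either, in the other direction. The same holds in either direction for 61.9% of all tested genes.

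Among the receptors, Notch1 fell and the other 3 did not pass. Notch1 (ENSMUSG00000026923.15, chromosome 2, 26457903 to 26516663 on the minus strand in mm10) is the receptor best known from blood vessels and lymphocytes. It had 1024, 1084 and 614 raw counts in the KspCre-labelled libraries, which are 24.0, 26.2 and 23.4 normalized CPM, against 764, 1410 and 790 raw counts or 28.1, 37.1 and 33.2 normalized CPM in the Tfam f/f-labelled ones. All 3 KspCre-labelled libraries were below all 3 Tfam f/f-labelled ones, while 61.9% of all tested genes do not overlap in either direction. Means were 24.6 ± 1.45 and 32.8 ± 4.56 (SD, n = 3 each), a 1.34-fold lower level in the KspCre-labelled libraries (log2 fold change -0.42, SE 0.12, adjusted p = 0.0253). This call was lost when any 1 of the KspCre-labelled libraries was left out, with adjusted p of 0.0951, 0.0611 and 0.106 without replicates 1, 2 and 3. Across 17 alternatives that test for any difference its adjusted p ran between 0.00127 and 0.106. Notch1 shares 1068 exonic bases with the opposite-strand gene 0610009E02Rik, and since the strand setting of the counting is not given, its count is uncertain to that extent.

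Notch2 (chromosome 3, 98013527 to 98150361), the receptor of proximal tubule and podocyte development, differed least among the receptors. It had 65.1, 61.9 and 64.5 normalized CPM in the KspCre-labelled libraries, against 58.1, 60.2 and 68.0 in the Tfam f/f-labelled ones. The groups overlapped, and the 95% interval of the fold was 0.887 to 1.19 (adjusted p = 0.739). Notch2 shares 541 exonic bases with Gm42820, a gene on the same strand, which no strand setting can separate. Notch3 (chromosome 17, 32120820 to 32166852), the receptor of vascular smooth muscle and pericytes, had 19.6, 19.9 and 17.9 normalized CPM in the KspCre-labelled libraries, against 19.8, 22.5 and 24.0 in the Tfam f/f-labelled ones. The ranges overlapped slightly, with a log2 fold change of -0.21 (SE 0.11, adjusted p = 0.162) and an interval of 0.726 to 1.04 for the fold. Notch3 shares 488 exonic bases with the opposite-strand gene Gm17276. Notch4 (chromosome 17, 34564268 to 34588503), a mainly endothelial receptor, had 18.7, 19.5 and 19.8 normalized CPM in the KspCre-labelled libraries, against 18.5, 20.8 and 13.3 in the Tfam f/f-labelled ones. The difference turned on replicate 3 of the Tfam f/f-labelled libraries: the log2 fold change was 0.14 with all libraries (adjusted p = 0.516) and -0.03 without it.

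Markers of the cells that carry these receptors did not all move alike. Of 17 endothelial markers, Ehd3 was higher in the KspCre-labelled libraries and 16 did not pass, and their summed level was 590 to 616 normalized CPM there, within the 381 to 675 of the Tfam f/f-labelled ones. Of 11 mural cell markers 6 were higher and 1 was lower in the KspCre-labelled libraries, with a summed level of 495 to 530 against 310 to 374. Of 10 podocyte markers 5 were higher and 1 was lower, with a summed level of 547 to 616 against 290 to 428. The share called was 5.88% of the endothelial, 63.6% of the mural and 60% of the podocyte markers, against 46.2% of all tested genes. The marker lists were chosen with earlier results of these data known, so these shares are no test. No marker of these lists was at 0 in any library, and the part of these cells in the receptor values was not tested. In whole tissue, fewer cells of a type and less RNA per cell cannot be told apart.

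Promoter windows of 250 bases before to 50 after the start, from RefSeq on GRCm38.p6, were matched for 8 of the 10 genes, all but Hes1 and Hey1. They were searched on both strands for the core of the RBPJ binding motif, TGGGAA, and for 2 motifs that Hes proteins bind, the class C site CACGCG and the N-box CACNAG. None of the 9 windows of the 8 genes held TGGGAA, which 25.6% of all 32851 windows hold. CACGCG was found in 5 of the 9, against 9.27% of all windows, and CACNAG in 5 of the 9, against 42.5%. The windows of the 8 genes were rich in G and C, with a median of 63.7% against 52.7% over all windows, and CACGCG is itself made mostly of these bases. Shown here are the window of Notch1, the receptor that fell (chr2:26503773-26504072, minus strand), that of Notch2, the receptor whose values overlapped (chr3:98013288-98013587, plus strand), and, as a window that does hold the RBPJ letters, that of the target Hey2 (chr10:30842734-30843033, minus strand). No string of letters matches more than 1 of the 3 motifs. In the windows of the other pathway genes, 19 of 67 held TGGGAA, 13 held CACGCG and 22 held CACNAG. Their median of G and C was 63%. The part of base composition in the matches was not tested. The Notch1 window surrounds the RefSeq start, which lies inside the longer GENCODE span of the gene. Each is written along the gene's strand, with capitals on every match to the 3 motifs or their reverse complements.
Notch1: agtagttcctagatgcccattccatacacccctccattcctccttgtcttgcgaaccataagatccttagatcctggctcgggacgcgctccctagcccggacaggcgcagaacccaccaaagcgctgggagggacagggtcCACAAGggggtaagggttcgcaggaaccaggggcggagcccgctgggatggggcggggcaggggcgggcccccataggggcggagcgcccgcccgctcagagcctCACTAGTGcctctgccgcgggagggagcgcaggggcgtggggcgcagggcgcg
Notch2: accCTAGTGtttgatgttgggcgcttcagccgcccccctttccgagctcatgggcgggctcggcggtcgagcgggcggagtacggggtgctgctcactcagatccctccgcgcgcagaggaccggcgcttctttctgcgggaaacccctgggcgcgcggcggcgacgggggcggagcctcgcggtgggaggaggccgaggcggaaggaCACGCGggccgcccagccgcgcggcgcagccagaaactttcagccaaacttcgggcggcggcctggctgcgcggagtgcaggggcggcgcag
Hey2: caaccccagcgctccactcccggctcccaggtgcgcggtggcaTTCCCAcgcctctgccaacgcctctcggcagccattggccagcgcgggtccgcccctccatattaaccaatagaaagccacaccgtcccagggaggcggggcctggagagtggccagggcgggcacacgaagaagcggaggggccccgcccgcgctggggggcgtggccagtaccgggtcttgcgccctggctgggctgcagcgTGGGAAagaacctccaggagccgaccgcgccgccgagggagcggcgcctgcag
In the Notch1 window the capitals are N-box letters, of which the last run is 2 overlapping matches on opposite strands. The Notch2 window holds 1 N-box at its far end and 1 class C site, and the Hey2 window holds TGGGAA once on each strand. These are matches of letters only, and nothing about binding of either factor follows from their presence or absence.

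No ligand passed the test. Jag1 (chromosome 2, 137081456 to 137116644), the ligand that injured tubules are known to express, had 34.5, 33.4 and 38.2 normalized CPM in the KspCre-labelled libraries, against 34.7, 40.8 and 55.7 in the Tfam f/f-labelled ones. The lowest Tfam f/f-labelled library lay within the range of the others, and replicate 3 was the highest of the 6. The log2 fold change was -0.31 (SE 0.17, adjusted p = 0.17, interval of the fold 0.616 to 1.06), and -0.10 without replicate 3 of the Tfam f/f-labelled libraries. Replicate 3 was also the library with the highest sum of injury markers. Of these, 14 of 15 were lower in the KspCre-labelled libraries, as were 24.9% of all tested genes. The part of injury markers in the Jag1 values was not tested.

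Jag2 (chromosome 12, 112907819 to 112929776), the other Jagged ligand, had 7.47, 7.68 and 6.72 normalized CPM in the KspCre-labelled libraries, against 6.94, 7.22 and 6.97 in the Tfam f/f-labelled ones. Its groups overlapped, and the fold had an interval of 0.835 to 1.28 (adjusted p = 0.775). Dll4 (chromosome 2, 119325784 to 119335962), the ligand of sprouting endothelium, had 8.24, 9.40 and 11.6 normalized CPM in the KspCre-labelled libraries, against 9.03, 12.4 and 7.93 in the Tfam f/f-labelled ones. The groups overlapped over most of their range, with an interval of 0.709 to 1.38 for the fold (adjusted p = 0.96). Dll4 shares 214 exonic bases with the opposite-strand gene Gm14207.

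Dll1 (chromosome 17, 15367354 to 15376872) was the ligand with the smallest p. It had 10.005, 9.40 and 10.6 normalized CPM in the KspCre-labelled libraries, against 7.49, 9.14 and 7.76 in the Tfam f/f-labelled ones. The 3 KspCre-labelled libraries were above the others without overlap, which holds in either direction for 61.9% of all tested genes. The log2 fold change of 0.30 did not pass (SE 0.14, adjusted p = 0.111, interval of the fold 0.985 to 1.53). Without replicate 2 of the Tfam f/f-labelled libraries it passed (adjusted p = 0.0291, in a range up to 0.495 over alternatives). Dll1 shares 867 bases, or 20.6% of its exonic length, with the opposite-strand gene A930024N18Rik, the largest share of exonic length in any such overlap among the 10 genes.

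**Figure D2:**
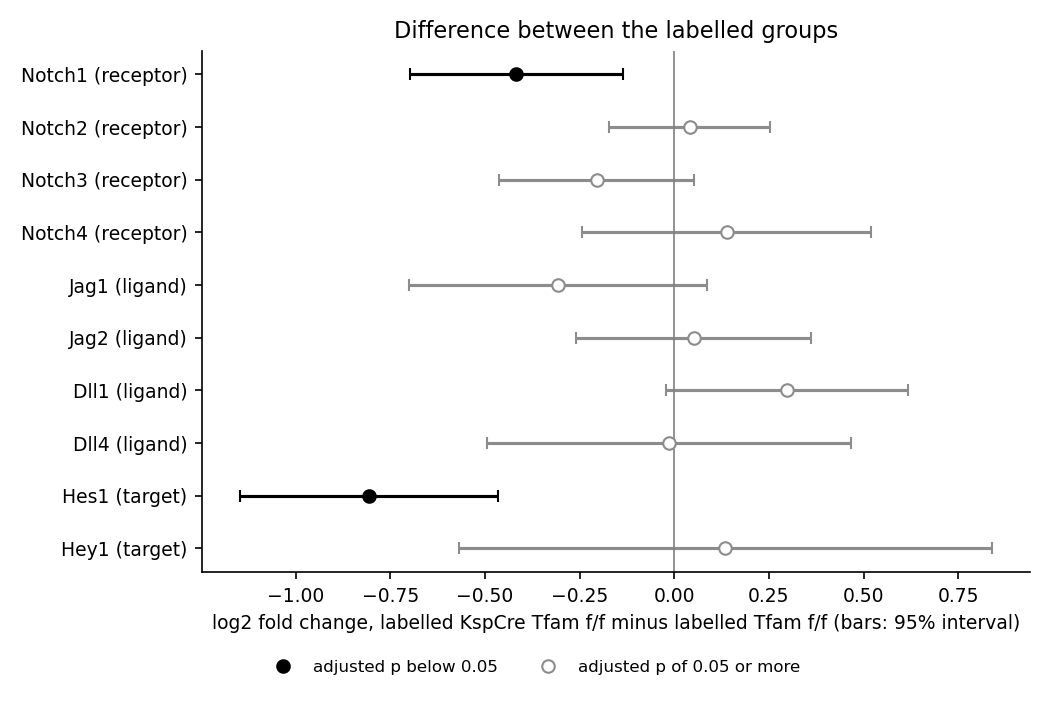
Log2 fold change of each gene (horizontal axis), KspCre-labelled minus Tfam f/f-labelled, with bars for the 95% interval from edgeR and filled points for an adjusted p below 0.05. Hes1 at -0.81 and Notch1 at -0.42 have intervals below 0, while those of the other 8 genes include it.

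Of the targets, Hes1 was the gene with the largest difference among the 10, and Hey1 had the fewest counts. Hes1 (ENSMUSG00000022528.8, chromosome 16, 30064384 to 30067796 on the plus strand) encodes a basic helix-loop-helix repressor that keeps progenitor cells from differentiating. It had 765, 819 and 442 raw counts in the KspCre-labelled libraries, which are 18.0, 19.8 and 16.9 normalized CPM, against 862, 996 and 903 raw counts or 31.7, 26.2 and 37.9 normalized CPM in the Tfam f/f-labelled ones. The highest KspCre-labelled library was well below the lowest Tfam f/f-labelled one, while 61.9% of all tested genes do not overlap in either direction. Means were 18.2 ± 1.48 and 31.9 ± 5.83 (SD, n = 3 each), a 1.75-fold lower level in the KspCre-labelled libraries (log2 fold change -0.81, SE 0.15, adjusted p = 0.00449). The call held under 17 alternatives that test for any difference, with adjusted p from 7.89e-05 to 0.0252, and was lost in the test against a minimum fold of 1.5. No annotated gene overlaps Hes1.

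Hey1 (chromosome 3, 8663359 to 8667256), a related repressor of endothelial and other cells, had 54, 42 and 18 raw counts in the KspCre-labelled libraries and 25, 30 and 25 in the Tfam f/f-labelled ones. These are 1.27, 1.01 and 0.687 normalized CPM against 0.918, 0.790 and 1.05. The groups overlapped, and at this depth the interval of the fold, 0.674 to 1.79, was the widest of the 10.

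Markers that moved in the direction of Hes1 were those of injured tubules, macrophages and the immediate early response. In the KspCre-labelled libraries, 14 of 15 injury markers, 11 of 12 macrophage markers and 10 of 14 immediate early genes were lower and none was higher. Among all tested genes, 24.9% were lower and 21.3% higher. These marker lists too were chosen with earlier results of these data known, so their shares are no test. Summed macrophage markers were at 252 to 306 normalized CPM in the KspCre-labelled libraries and 427 to 1371 in the Tfam f/f-labelled ones, and summed immediate early genes at 187 to 250 and 377 to 1010. Proximal tubule markers went the other way, with 10 of 12 higher in the KspCre-labelled libraries and a summed level of 46948 to 48741 against 3651 to 15260. Of 10 markers of the distal nephron 5 were higher and 2 were lower, with summed levels of 11136 to 12180 and 4704 to 7740. Among Tfam f/f-labelled libraries, Hes1 and the summed injury, macrophage and immediate early levels were all highest in replicate 3 and lowest in replicate 2. Their part in the Hes1 values was not tested, and without replicate 3 Hes1 was 1.59-fold lower.

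Levels of different genes were compared as normalized CPM per kilobase of exonic length. This length joins all annotated exons of a gene, 14.2 kb for Notch1 and 10.8 kb for Notch2. Transcripts in these kidneys may be shorter, so the order of the genes depends on the length used. On this scale Hes1 was the highest of the 10 genes in both groups, at 8.94 ± 0.724 in the KspCre-labelled libraries and 15.7 ± 2.86 in the Tfam f/f-labelled ones (SD, n = 3 each). Jag1 at 6.07 ± 0.433 and 7.50 ± 1.85 and Notch2 at 5.92 ± 0.155 and 5.76 ± 0.484 came next, and their ranges overlapped in both groups. In the KspCre-labelled libraries, Dll4, Notch4, Dll1 and Notch3 followed at 2.53, 2.399, 2.37 and 2.36, each overlapping the next, and then Notch1 at 1.73. In the Tfam f/f-labelled libraries, Notch3, Dll4, Notch1, Notch4 and Dll1 followed at 2.73, 2.54, 2.30, 2.18 and 1.93, again each overlapping the next. Jag2 at 1.05 and 1.01 and Hey1 at 0.303 and 0.282 were lowest in both groups, without overlap with their neighbours.

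Notch2 made up the greatest part of the summed receptor level per kilobase and Jag1 that of the ligands, in every library. Notch2 took 46.1% to 48.7% in the KspCre-labelled libraries and 41.2% to 47.6% in the Tfam f/f-labelled ones. The share of Notch1 was 13.4% to 14.8% and 16.3% to 19.2%, without overlap. Jag1 took 49.8% to 51.4% of the ligand level in the KspCre-labelled libraries and 52.2% to 66.1% in the Tfam f/f-labelled ones, and Dll1 19.3% to 20.6% and 12.7% to 16.1%. These shares were not tested, and shares of one sum move together. They also depend on the exonic lengths used.

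The rest of the pathway was read from 7 lists of 65 genes, of which 60 passed the filter. In the KspCre-labelled libraries 14 were higher and 17 lower, and 29 did not pass, which is 51.7% called, near the 46.2% of all tested genes. The median log2 fold change of the 60 was -0.06. Of the 7 lists, 6 held called genes of both directions, and the remaining one, of further ligands, held no called gene.

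**Figure D3:**
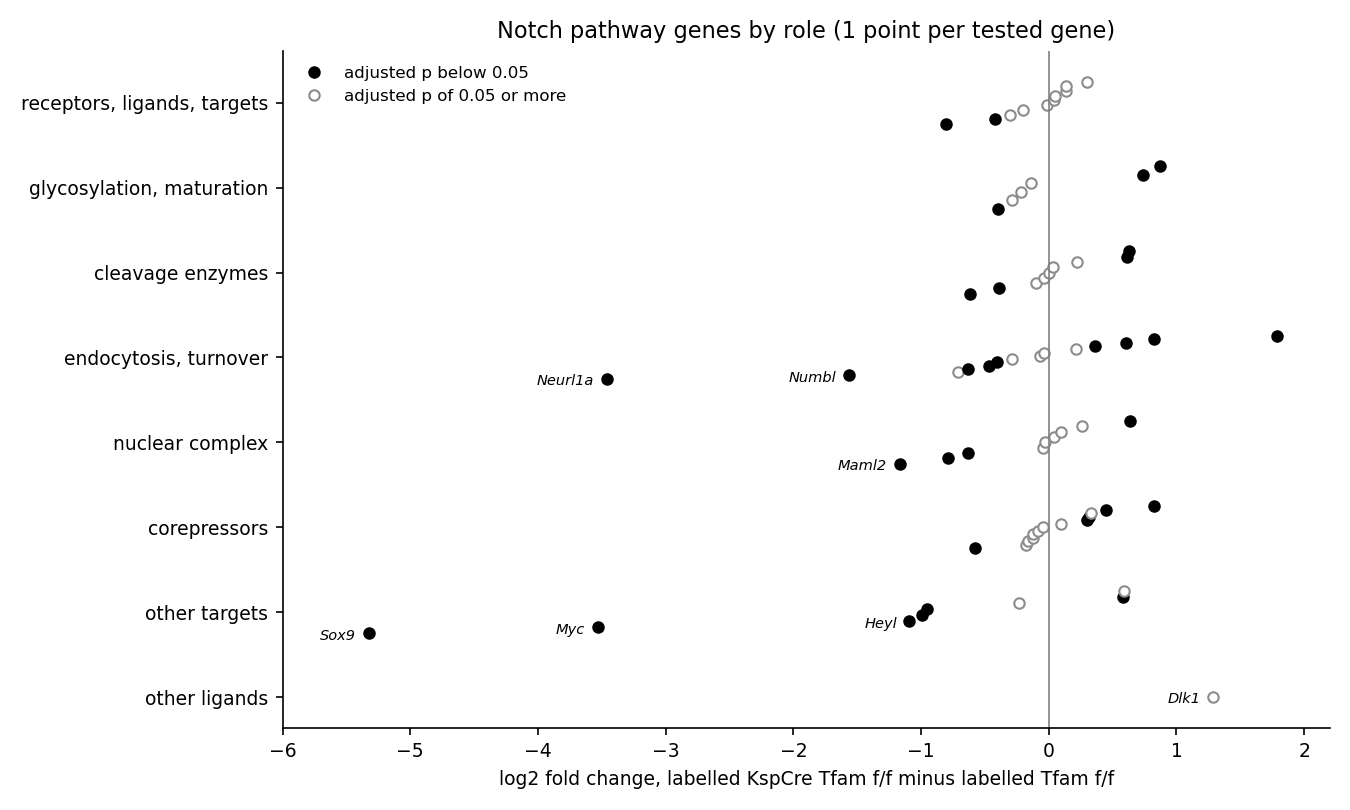
Log2 fold change of every tested Notch pathway gene (horizontal axis), KspCre-labelled minus Tfam f/f-labelled, in rows by role, with filled points for an adjusted p below 0.05 and vertical spacing only to separate points. The 10 core genes lie between -0.81 and 0.30, while Neurl1a, Myc and Sox9 lie below -3.

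Of 6 genes for receptor glycosylation and maturation, 2 were higher and 1 was lower in the KspCre-labelled libraries (median log2 fold change -0.18). That is 50% called, near the 46.2% of all tested genes. Furin, the protease that cuts the receptor precursor, had 302 ± 18.0 normalized CPM there and 165 ± 26.7 in the Tfam f/f-labelled ones, 1.82-fold higher (adjusted p = 0.00401). Rfng, a Fringe glycosyltransferase that extends sugars on the receptor, was 1.67-fold higher (adjusted p = 0.00525). Poglut1, which adds glucose to its EGF-like repeats, was 1.32-fold lower (adjusted p = 0.0152), a call lost when any 1 KspCre-labelled library was left out (adjusted p of 0.0696, 0.0542 and 0.0627 without replicates 1, 2 and 3, the range being 0.00361 to 0.0696 without each library in turn).

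Of the 9 cleavage enzyme genes 2 were higher and 2 lower in the KspCre-labelled libraries (median log2 fold change 0.00), which is 44.4% called, near the 46.2% of all tested genes. Aph1c, a subunit gene of gamma-secretase, had 55.8 ± 3.55 normalized CPM there and 36.03 ± 5.09 in the Tfam f/f-labelled ones (1.55-fold higher, adjusted p = 0.00541). Ncstn, which encodes its subunit nicastrin, had 92.9 ± 3.45 and 143 ± 23.2 normalized CPM (1.54-fold lower, adjusted p = 0.00837). The protease Adam17 was 1.31-fold lower (adjusted p = 0.0159).

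Of the genes of ligand endocytosis and receptor turnover, 4 of 14 were higher and 5 lower in the KspCre-labelled libraries (median log2 fold change -0.18). That is 64.3% called, against 46.2% of all tested genes. Neurl1a, a ubiquitin ligase that acts on ligands, had 0.775, 0.676 and 0.916 normalized CPM in the KspCre-labelled libraries, against 10.1, 4.66 and 11.3 in the Tfam f/f-labelled ones (11.02-fold lower, adjusted p = 0.000632). Numbl, related to the Notch inhibitor Numb, was 2.96-fold lower (adjusted p = 0.0031), while Numb itself was 1.29-fold higher (adjusted p = 0.0217). Itch, a ubiquitin ligase that acts on the receptor, was 1.77-fold higher (adjusted p = 0.0055).

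In the nuclear complex, 1 of 9 genes was higher and 3 were lower in the KspCre-labelled libraries (median log2 fold change -0.03). That is 44.4% called, near the 46.2% of all tested genes. The coactivator genes Maml2 and Maml3 had 11.6 ± 1.40 and 10.3 ± 1.05 normalized CPM there, against 26.1 ± 6.61 and 17.9 ± 1.004 in the Tfam f/f-labelled ones, 2.25-fold and 1.73-fold lower (adjusted p = 0.00299 and 0.00246). The acetyltransferase gene Kat2a was 1.55-fold lower and its relative Kat2b 1.56-fold higher (adjusted p = 0.00845 and 0.0049). Rbpj, the DNA-binding partner of all 4 receptors, had 39.3 ± 1.59 and 38.2 ± 8.26 normalized CPM and did not pass (adjusted p = 0.835). Of 13 corepressors 4 were higher, among them Tle4 (1.77-fold, adjusted p = 0.00341) and Spen (1.36-fold, adjusted p = 0.0121), and Ctbp2 was 1.49-fold lower (adjusted p = 0.00259), the median log2 fold change being -0.05 with 38.5% called. The call of Spen was lost without replicate 3 of the KspCre-labelled libraries (adjusted p = 0.0565, the highest of 0.00233 to 0.0565 without each library in turn). With total counts as the scaling, Aph1c, Kat2b and Spen did not pass.

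Of the other targets, 5 of 8 tested genes were lower in the KspCre-labelled libraries and 1 was higher, where 24.9% of all tested genes were lower and 21.3% higher. Their median log2 fold change was -0.97, against -0.03 over all tested genes. This list was chosen with earlier results of these data known, so its shares and median are no test of Notch activity. Heyl, another Hey repressor, had 4.79, 4.83 and 3.97 normalized CPM in the KspCre-labelled libraries, against 9.47, 7.96 and 11.7 in the Tfam f/f-labelled ones (2.13-fold lower, adjusted p = 0.00352). Its groups did not overlap, which holds in either direction for 61.9% of all tested genes. Hes6, a Hes family member that counteracts Hes1, was 1.499-fold higher (adjusted p = 0.0186). Whether Hes6 is itself a Notch target was not tested. Hey2 had 1.47 ± 0.117 and 0.976 ± 0.0998 normalized CPM and did not pass (adjusted p = 0.0691). Myc and Sox9, which answer to many other signals as well, lay lowest. Myc had 4.67, 4.25 and 4.73 normalized CPM in the KspCre-labelled libraries, against 47.8, 28.6 and 81.8 in the Tfam f/f-labelled ones (11.6-fold lower, adjusted p = 0.000685). Sox9, a transcription factor of regenerating tubules, was 40.1-fold lower (adjusted p = 0.00189), and 19.6-fold without replicate 3 of the Tfam f/f-labelled libraries. Ccnd1 and Bhlhe40 were 1.94-fold and 1.99-fold lower (adjusted p = 0.0045 and 0.00938). The Notch feedback gene Nrarp had 4.38 ± 0.207 and 5.14 ± 0.428 normalized CPM and did not pass (adjusted p = 0.255). Hes5 and Hes7 were too low to test, with 1 and 17 counts over the KspCre-labelled libraries and 0 and 16 over the Tfam f/f-labelled ones.

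Transcripts of 4 further ligands were rare. Dll3, Dlk2 and Dner had 0, 30 and 1 counts over the KspCre-labelled libraries and 5, 11 and 2 over the Tfam f/f-labelled ones and were not tested. Dlk1, a membrane protein related to the Delta-like ligands, had 0.461 ± 0.187 and 0.174 ± 0.105 normalized CPM and did not pass (adjusted p = 0.0826). Without replicate 2 of the Tfam f/f-labelled libraries it passed (3.87-fold against 2.44-fold with all, adjusted p = 0.0394). The range reached 0.192 over the 5 fits with a library left out that tested it. Without replicate 2 of the KspCre-labelled libraries Dlk1 was too low to test.

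The genes whose profiles over the 6 libraries were most like those of Notch1, Dll1 and Hes1, the gene of each role with the smallest p, came from outside the pathway lists. Likeness was the root mean square difference of log2 normalized CPM after centring, over 11745 genes. Nearest to Notch1 were Plxna2 (0.046), Sesn3 (0.065) and Rhoq (0.066). Nearest to Dll1 were Asb7 (0.015), Klhl20 (0.019) and Bptf (0.031), and nearest to Hes1 were Rnps1 (0.030), Mcph1 (0.039) and Smurf1 (0.042). Rnps1 had 32.9 ± 1.64 normalized CPM in the KspCre-labelled libraries and 57.8 ± 10.1 in the Tfam f/f-labelled ones.

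The scaling of the libraries bears on all small differences here. TMM factors were 0.852 to 0.871 in the KspCre-labelled libraries and 1.09 to 1.25 in the Tfam f/f-labelled ones, and with total counts alone the log2 fold changes of all genes moved by a median of -0.43. Hes1 and Notch1 were lower and passed under each of the 4 scalings plotted. With total counts, Notch2, Notch3 and Jag1 passed as well, at log2 fold changes of -0.39, -0.64 and -0.75. The median of all genes under that scaling was -0.46, below the value of Notch2.

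**Figure D4:**
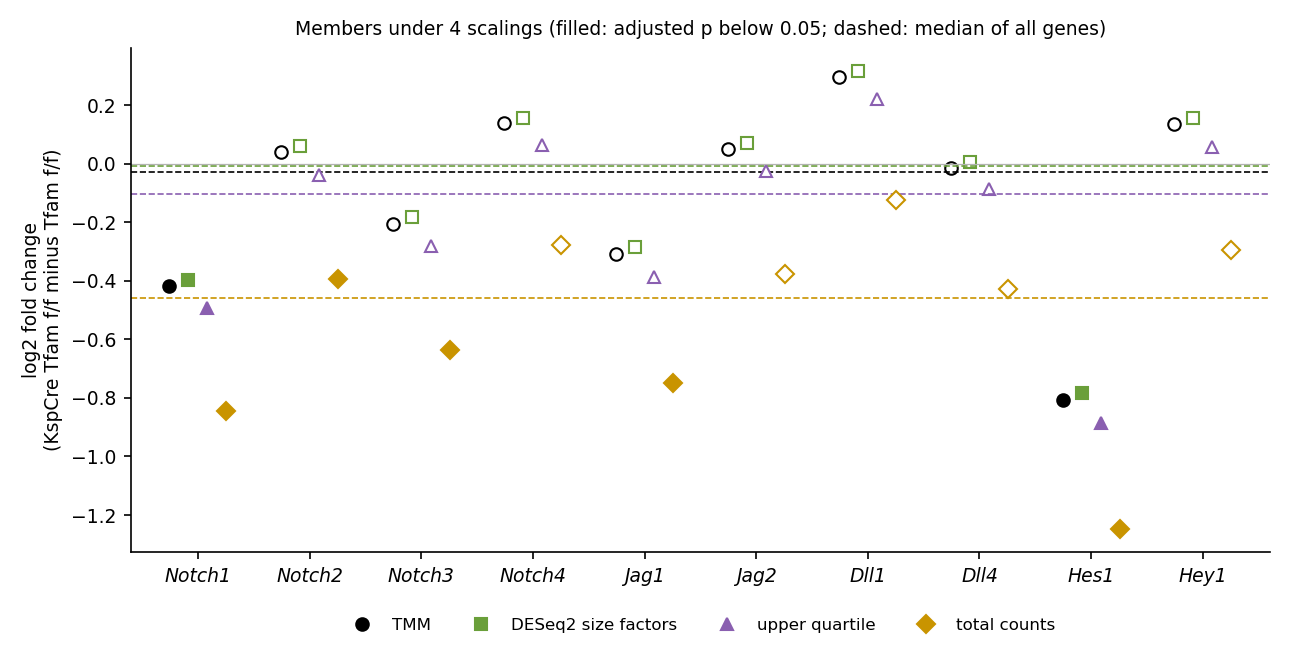
Log2 fold change of the 10 genes (vertical axis), KspCre-labelled minus Tfam f/f-labelled, under TMM, DESeq2 size factors, upper quartile factors and total counts, with filled symbols for an adjusted p below 0.05 and a dashed line at the median of all tested genes under each scaling. Hes1 lies between -0.78 and -1.25 and Notch1 between -0.40 and -0.84, below the dashed line of the same scaling in every case.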

How the data were processed

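Poly A+ RNA of whole kidneys was sequenced as strand-specific read pairs of 150 bases, per the labels' protocols. The authors deposited raw gene counts, 1 file per library. The submitters' processing notes name mm10 with STAR 2.4.1d, HTSeq 0.11.0, Trim Galore and FastQC. Neither the annotation release nor the strandedness option used in counting is given in the sources used here. The 5 summary lines of each file, 16.0% to 20.4% of its total, were left out. Counts of all genes kept by filterByExpr (minimum count 10, minimum total 15) were fitted with edgeR 4.0.16 in R 4.3.3, with TMM factors and the quasi-likelihood test with robust estimation, and p-values were adjusted over all 17308 tested genes by the Benjamini-Hochberg method. Log2 fold changes are KspCre-labelled minus Tfam f/f-labelled. The SE of each comes from the F statistic, and the 95% interval from that SE and the t distribution. The same TMM factors gave the normalized CPM. Exonic lengths and positions come from GENCODE M21 (GRCm38). Alternatives used DESeq2 1.42.0, limma 3.58.1, other scalings and filters, and each library left out. The fit was tested on simulated counts. Within groups, pairs of libraries differed beyond counting error (chi-square over its degrees of freedom at least 6.57), and all were kept.

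The 10 genes and the lists were chosen with earlier results of these data known. Of each pathway list, up to 3 called genes with the smallest p are named, or 1 where none was called, and the profiles most like a gene were sought among genes whose average log2 CPM reached 2. Other genes named were chosen after their values were seen. A gene that the rule names is not reported here. Replicates with the same number did not deviate together, and the main fit did not pair them. With 3 libraries per group this cannot exclude pairing.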

Additional observations from a re-analysis of the deposited data

How the results depend on the processing

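Hes1 and Tfam kept their direction and their call under 17 alternatives that test for any difference, and Notch1 under 14 of them. Leaving out each library in turn gave log2 fold changes of -0.91 to -0.67 for Hes1, -0.50 to -0.29 for Notch1, 0.01 to 0.11 for Notch2, -0.26 to -0.15 for Notch3, -0.030 to 0.30 for Notch4, -0.43 to -0.10 for Jag1, 0.02 to 0.12 for Jag2, 0.26 to 0.42 for Dll1, -0.15 to 0.22 for Dll4 and -0.077 to 0.33 for Hey1. It gave 0 to 1 of the 10 genes higher, 1 to 2 lower, 8 to 20 other pathway genes higher and 12 to 19 lower, and 2276 to 4652 genes higher and 2822 to 4942 lower over the whole table. With total counts alone, 5 of the 10 genes were lower, 5 other pathway genes higher and 35 lower, and 1680 genes higher and 8519 lower in all, so that 16.5% of called genes were higher against 46.1% with TMM. That scaling gave log2 fold changes of -0.39 for Notch2, -0.64 for Notch3, -0.28 for Notch4, -0.75 for Jag1, -0.38 for Jag2, -0.13 for Dll1 and -0.29 for Hey1. The shift of all libraries of a group is part of that scaling's construction. Upper quartile factors turned Notch2 to -0.037 and Jag2 to -0.025, DESeq2 size factors and the DESeq2 test turned Dll4 to 0.0051 and 0.0056, and thinning turned Hey1 to -0.31, none of which passed. At least 1 CPM in at least 3 libraries left 14732 genes. A minimum fold of 1.5 left 0 of the 10 genes called, so that Hes1 lost its call, with 1116 genes higher and 1824 lower. With the replicate number as a block, Hes1 was at -0.79 (adjusted p = 0.00848) and Notch1 at -0.41 (0.0371), and the block changed no call of the 10 genes. Correlations of same-numbered libraries' deviations were -0.155, -0.0687 and -0.0679, and the highest between other numbers was 0.169. Depth limits Hey1 most, with 18 to 54 counts per library.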
